A study of Rattus rattus with 8 samples.

Results

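The mitochondrial solute carriers of family 25 were read in epithelium shaken off the proximal colon of 2 inbred rat strains, the spontaneously hypertensive rat (SHR) and the Wistar-Kyoto rat (WKY), its usual normotensive control. The members are the genes of the deposited expression table whose symbol begins with Slc25a, with 1 row per symbol. The table holds 35 such symbols, of which 33 are described here, among 11762 listed genes, and all 33 passed the filter on low values. Each strain has 4 libraries, which the labels number 1 to 4 without saying whether each came from a separate rat, so a p-value here reflects only the spread among libraries, which may be technical. The labels name no treatment, allele, age or sex for either strain, and in bulk tissue fewer cells of a type and less RNA per cell cannot be told apart. Levels are taken as FPKM, fragments per kilobase of transcript scaled to the size of the library, a unit the deposited file does not name. Comparisons between genes rest on that unit and on transcript lengths that are not given.

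Slc25 proteins sit mostly in the inner mitochondrial membrane, where each swaps or imports a particular metabolite between the cytosol and the matrix. They bring in ADP and phosphate, send out ATP, and carry the dicarboxylates, amino acids, iron, glutathione, nucleotides and coenzymes on which the citric acid cycle, heme synthesis and mitochondrial gene expression depend. Colonic surface cells rely heavily on mitochondrial oxidation, for which bacterial butyrate is a main fuel. The carriers are made in the cytosol and threaded into the inner membrane by a translocase set aside for such proteins.

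The carriers were expressed at very different levels, and the 7 highest came in the same order in both strains. The adenine nucleotide carrier gene Slc25a5 had the highest level, followed by the phosphate carrier gene Slc25a3, the dicarboxylate carrier gene Slc25a10 and the ATP-Mg/phosphate carrier gene Slc25a24, with means over all 8 libraries of 1623, 857, 296 and 103 FPKM. These were the 4 members above 100 FPKM, while 16 lay between 10 and 100 FPKM and 13 below 10 FPKM. The median member stood at 12.8 FPKM, beside 13.2 FPKM for all 11069 tested genes. Slc25a5 exceeded 99.4% of the tested genes and Slc25a37, the lowest member at 1.74 FPKM, exceeded 6.31%. Between neighbours in this order the ranges over the 8 libraries were separate in only 4 of 32 cases, those below Slc25a5, Slc25a3, Slc25a10 and Slc25a1. The ranges of the other neighbours overlapped, as those of Slc25a24, Slc25a11 and Slc25a39 did. In 1 of these overlapping cases, Slc25a16 above Slc25a38, the first was higher in all 8 libraries.

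**Figure D1:**
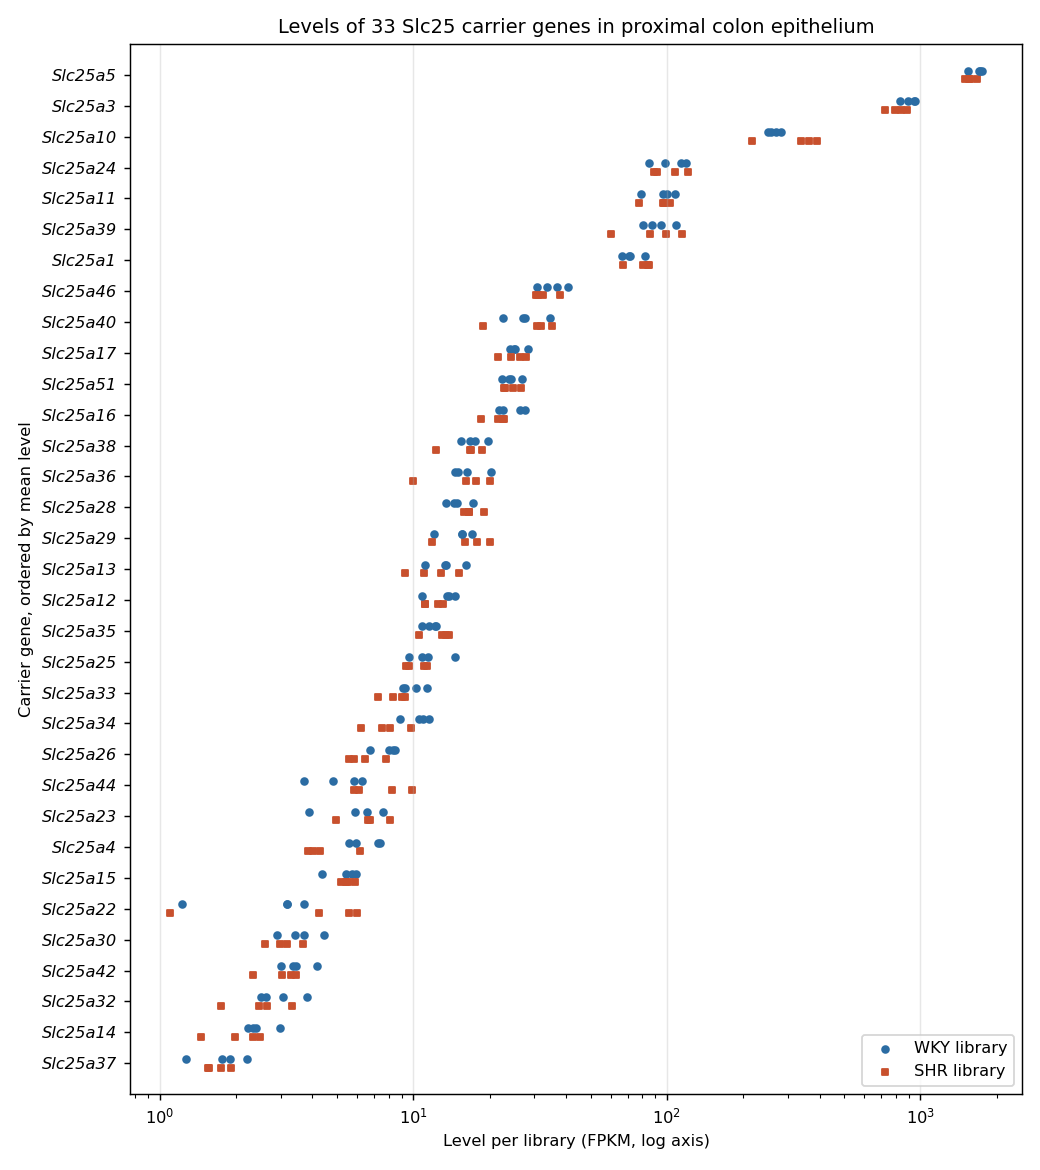
FPKM of each carrier gene in each library on a log axis, with genes ordered by their mean (circles, 4 WKY libraries; squares, 4 SHR libraries). Slc25a5, Slc25a3 and Slc25a10 stand apart at the top, and the circles and squares overlap for all 33 genes.

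No carrier differed between the strains past the threshold. With limma on log2(FPKM + 1) and a Benjamini-Hochberg threshold of 0.05 over all tested genes, 0 of 33 members were higher in SHR and 0 were lower. Of all tested genes, 10.9% passed, 3.40% higher and 7.48% lower. At an unadjusted p under 0.05 there were 3 members, 1 higher and 2 lower, where 27.4% of all tested genes reached that level. In the authors' deposited table, no member had a q-value under 0.05 and 2 had a p-value under 0.05, while 15.3% of the listed genes had such a q-value. No member had all of its SHR values on one side of all of its WKY values, whereas 16.1% of the tested genes did, 5.28% with SHR above and 10.8% with SHR below.

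The intervals show what size of difference these libraries leave room for. Log2 fold changes of the members ran from -0.45 to 0.46, with a median of -0.08 beside -0.07 for all tested genes, and 23 of 33 were negative (69.7%, beside 60.9% of all tested genes). The 95% interval lay within 1.5-fold in either direction for 28 of 33 members (84.8%, beside 66.4% of all tested genes) and within 2-fold for 32. Among the 20 members at 10 FPKM or more, 19 had an interval within 1.5-fold. The scale of log2(FPKM + 1) understates changes of genes at low levels, so the bounds mean less for the 13 members below 10 FPKM, and most of all for the 6 below 5 FPKM. The exception to the 2-fold bound was the glutamate carrier gene Slc25a22.

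**Figure D2:**
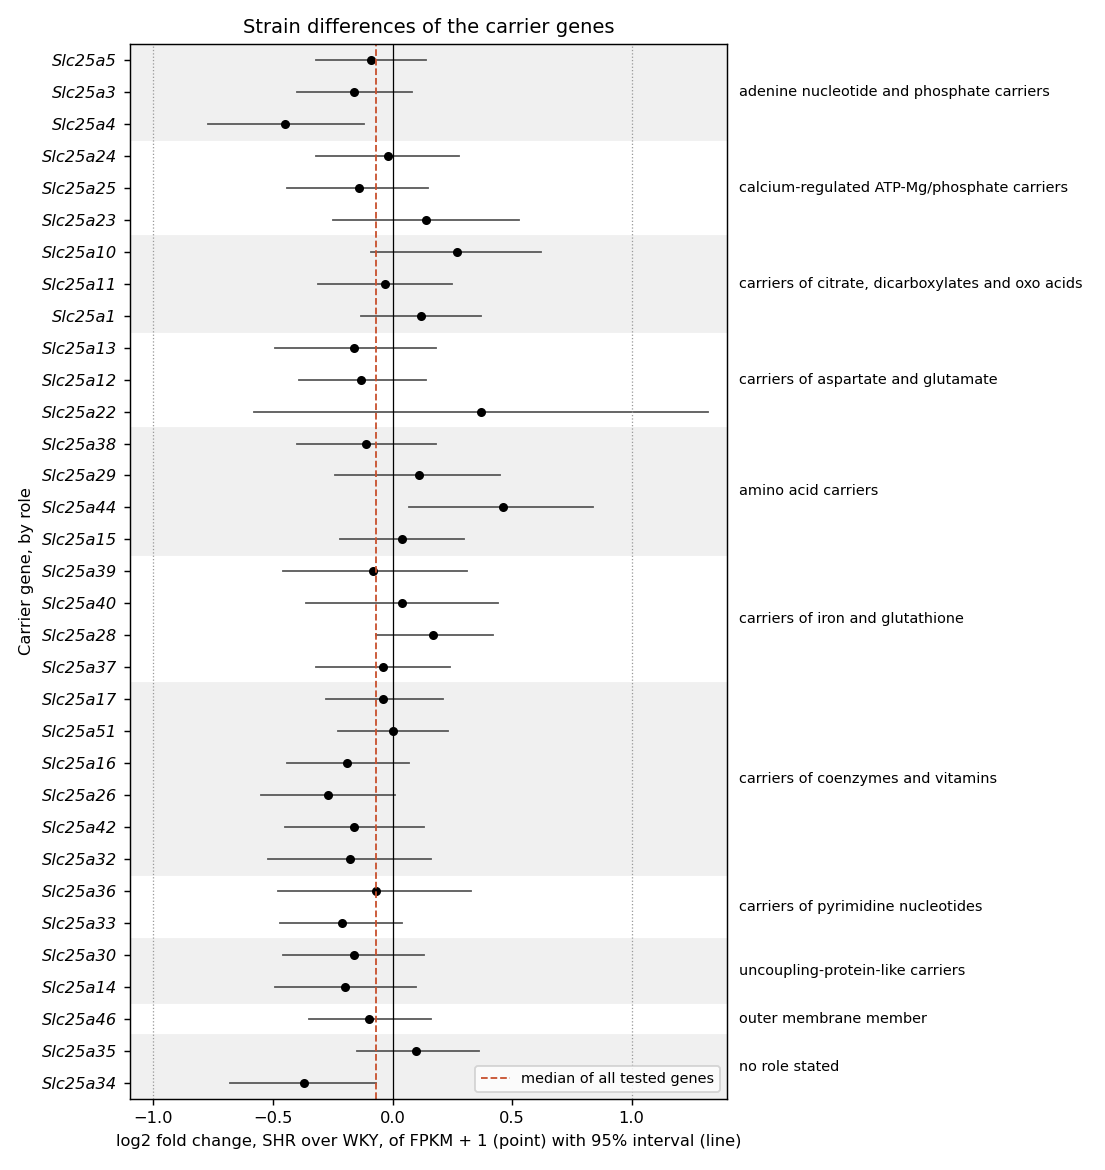
Log2 fold change of FPKM + 1, SHR over WKY, for each carrier gene grouped by role (points, limma estimate; lines, 95% interval; dotted lines, 2-fold; dashed line, median of all tested genes at -0.07). The points lie between -0.45 and 0.46, and the interval of Slc25a22, from -0.58 to 1.32, is the longest.

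The carriers of adenine nucleotides and phosphate serve oxidative phosphorylation directly. Slc25a5, which exchanges cytosolic ADP for matrix ATP, was at 1717, 1746, 1533 and 1701 FPKM in WKY replicates 1 to 4 and at 1674, 1547, 1574 and 1496 FPKM in SHR replicates 1 to 4. The strains overlapped, with SHR replicate 4 lowest of all and WKY replicate 3 lowest of its strain. Their means were 1674 ± 95.7 and 1573 ± 74.6 FPKM (SD, n = 4 each), with an interval for the log2 fold change from -0.32 to 0.14. Genes of this carrier have close processed copies in mammalian genomes, among which reads can be divided, so its level is uncertain. Slc25a3, which brings phosphate into the matrix, was at 904 ± 53.3 FPKM in WKY against 811 ± 69.6 in SHR (interval -0.40 to 0.08). After quantile normalization the log2 fold changes of Slc25a5 and Slc25a3 turned positive, at 0.23 and 0.04, neither past the threshold. After median centring they stayed negative, at -0.04 and -0.11.

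Slc25a4 encodes the adenine nucleotide carrier that predominates in heart and skeletal muscle, and in this epithelium it stood far below Slc25a5. It was at 7.40, 7.25, 5.58 and 5.97 FPKM in the WKY libraries, against 4.04, 6.15, 3.83 and 4.30 FPKM for SHR. All SHR libraries but replicate 2 lay below all WKY libraries. The means were 6.55 ± 0.911 and 4.58 ± 1.06 FPKM, a log2 fold change of -0.45 ± 0.15 (SE) that had the smallest adjusted p of any member (limma, 0.0731). Without SHR replicate 2 it was -0.57 and passed (limma adjusted p = 0.028). Without any other single library it ran from -0.51 to -0.38 and did not pass (limma adjusted p 0.0539 to 0.208). With a pseudocount of 5 it was -0.27 and did not pass either. Per unit length, Slc25a5 exceeded Slc25a4 by 232 to 285 times in WKY and by 252 to 414 times in SHR.

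The ATP-Mg/phosphate carriers, which adjust the adenine nucleotide content of the matrix and are stimulated by cytosolic calcium, were led by Slc25a24. It was at 119, 113, 85.4 and 98.4 FPKM in the WKY libraries, against 88.7, 108, 91.1 and 121 FPKM for SHR. The strains overlapped almost wholly (104 ± 15.1 and 102 ± 15.4 FPKM, interval -0.32 to 0.28). Slc25a25 stood at 11.6 ± 2.12 and 10.3 ± 1.01 FPKM, and Slc25a23 at 5.98 ± 1.55 and 6.60 ± 1.28 FPKM, in WKY and SHR. Slc25a24 exceeded Slc25a25 by 7.46 to 11.0 times in WKY and by 8.05 to 13.0 times in SHR, so the first was the main form in every library.

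The dicarboxylate carrier gene Slc25a10, whose protein exchanges malate and succinate for phosphate, was a member in which a single library decided the comparison. In WKY it stood at 259, 250.3, 268 and 282 FPKM, a narrow range. The SHR values were 363, 338 and 390.1 FPKM in replicates 1 to 3, all above WKY, and 216 FPKM in replicate 4, below every WKY library. The means were 265 ± 13.7 and 327 ± 76.7 FPKM (log2 fold change 0.27 ± 0.16, limma adjusted p = 0.312), and without SHR replicate 4 the log2 fold change was 0.45 and passed (limma adjusted p = 0.0233). The labels give no reason to leave that library out.

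The other carriers of this kind lay close together in level and did not pass. Slc25a11, which exchanges 2-oxoglutarate for malate in the malate-aspartate shuttle, was at 95.9 ± 12.2 FPKM in WKY against 93.7 ± 11.1 in SHR. Slc25a1, which exports citrate for fatty acid and sterol synthesis in the cytosol, was at 72.8 ± 6.61 and 79.2 ± 8.40 FPKM (interval -0.13 to 0.37). In SHR, both had their lowest value in replicate 4, as Slc25a10 did.

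Slc25a12 and Slc25a13 encode the aspartate/glutamate carriers aralar and citrin, which complete the same shuttle. They were present at nearly equal levels, with a ratio of the first to the second of 0.809 to 1.22 in WKY and 0.821 to 1.20 in SHR. Slc25a13 was at 13.44, 16.12, 11.11 and 13.37 FPKM in the WKY libraries, against 9.27, 11.05, 12.91 and 15.19 FPKM for SHR. The ranges overlapped (13.5 ± 2.05 and 12.1 ± 2.54 FPKM), and Slc25a12 was at 13.2 ± 1.65 and 11.9 ± 1.01 FPKM. Slc25a22, which imports glutamate, was the least even member, at 3.71, 3.19, 3.17 and 1.22 FPKM in the WKY libraries, against 1.10, 6.00, 5.57 and 4.26 FPKM for SHR. The lowest SHR value lay below all WKY values and the other 3 above them.

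Among the carriers of other amino acids, the highest was Slc25a38, which supplies mitochondrial glycine for heme synthesis. It was at 16.78, 17.50, 15.43 and 19.69 FPKM in the WKY libraries, against 18.59, 16.72, 16.89 and 12.28 FPKM for SHR, so the lowest value again fell in SHR replicate 4. Slc25a29, a carrier of basic amino acids, was at 15.1 ± 2.14 FPKM in WKY against 16.5 ± 3.48 in SHR. Slc25a15, the ornithine carrier of the urea cycle, was at 5.37 ± 0.705 and 5.51 ± 0.296 FPKM (interval -0.22 to 0.30).

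Slc25a44, which brings branched-chain amino acids into the matrix, had the largest positive log2 fold change of the family. It was at 4.83, 5.84, 6.30 and 3.72 FPKM in the WKY libraries, against 5.82, 8.22, 9.86 and 6.12 FPKM for SHR. SHR replicates 2 and 3 lay above all WKY libraries, and replicates 1 and 4 lay within the WKY range. The means were 5.17 ± 1.15 and 7.50 ± 1.90 FPKM, a log2 fold change of 0.46 ± 0.18 (limma adjusted p = 0.122). Without 1 library it ran from 0.33 to 0.55 and passed in no such fit (limma adjusted p 0.0755 to 0.333). It was 0.62 and passed without both WKY replicate 3 and SHR replicate 4 (limma adjusted p = 0.0477). That fit was added after seeing the data and called 18.8% of all genes. With a pseudocount of 5 the log2 fold change was 0.29 and did not pass. In the authors' deposited table the q-value of 0.079 for Slc25a44 was the smallest of any member.

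**Figure D3:**
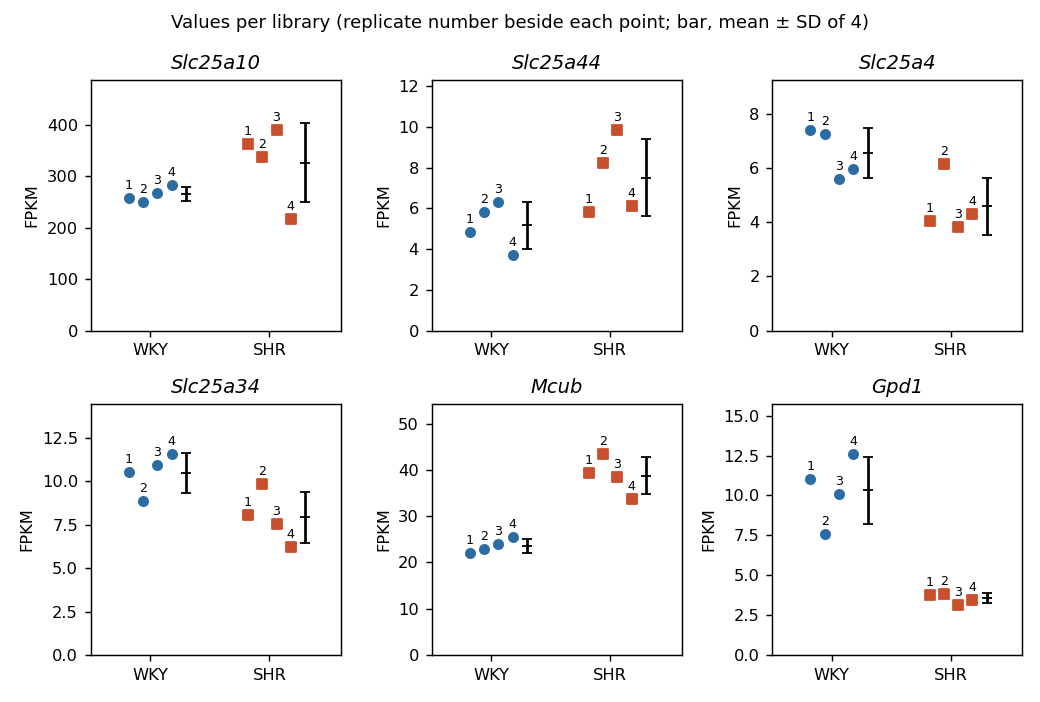
FPKM in each library for 4 carriers and for Mcub and Gpd1 (numbers beside points, replicate; bars, mean ± SD of 4 libraries; axes start at 0). SHR replicate 4 lies below all WKY libraries for Slc25a10, the strains overlap for all 4 carriers, and they are separate for Mcub and Gpd1.

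The carriers of iron and glutathione did not differ past the threshold either. Slc25a39, which imports glutathione into the matrix, was at 80.8, 94.6, 87.6 and 109.1 FPKM in the WKY libraries, against 114, 99.1, 86.2 and 60.4 FPKM for SHR. The SHR libraries spanned both the highest and the lowest value of all 8. Its paralogue Slc25a40 was at 28.0 ± 4.94 and 29.2 ± 7.16 FPKM, and the ratio of Slc25a39 to Slc25a40 ran from 2.73 to 4.02 in WKY and from 1.90 to 6.07 in SHR. Of the mitoferrins, which import iron for heme and iron-sulfur clusters, Slc25a28 was the main form. It stood at 15.0 ± 1.59 FPKM in WKY against 17.0 ± 1.38 in SHR (interval -0.07 to 0.42), beside 1.78 ± 0.391 and 1.70 ± 0.173 FPKM for Slc25a37, the form known for red cell precursors.

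None of the 6 carriers of coenzymes and vitamins described here passed. Their log2 fold changes ran from -0.27 to -0.00, with a median of -0.17, and those of Slc25a17 and Slc25a51 turned positive after quantile normalization (0.02 and 0.05) and after median centring (0.01 and 0.04). Slc25a17, the peroxisomal member, which carries coenzyme A and related cofactors, was highest. It was at 24.89, 28.42, 25.23 and 24.04 FPKM in the WKY libraries, against 26.43, 27.82, 21.55 and 24.28 FPKM for SHR, with overlapping strains (interval -0.28 to 0.21). Slc25a51, which imports NAD, had the same mean of 24.3 FPKM in both strains with an SD of 1.79 in each, and an interval from -0.23 to 0.23. Slc25a16, linked to coenzyme A, was at 24.6 ± 2.86 FPKM in WKY against 21.4 ± 1.99 in SHR (interval -0.44 to 0.07).

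The remaining members of that group were lower in level. Slc25a26, which imports S-adenosylmethionine for methylation in the matrix, was at 7.89 ± 0.788 and 6.42 ± 1.01 FPKM (log2 fold change -0.27 ± 0.13, limma adjusted p = 0.198), a difference of means larger than the SD of either strain that did not pass. The coenzyme A carrier gene Slc25a42 was at 3.50 ± 0.493 and 3.04 ± 0.494 FPKM. Slc25a32, linked to folate and flavin transport, was at 3.00 ± 0.583 and 2.55 ± 0.653 FPKM. For Slc25a42 and Slc25a32 the difference of the means was smaller than the SD of either strain.

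The pyrimidine nucleotide carriers supply precursors for mitochondrial DNA and RNA. Slc25a36 was at 16.22, 15.01, 20.32 and 14.60 FPKM in the WKY libraries, against 10.02, 17.70, 16.21 and 20.11 FPKM for SHR, where SHR replicate 1 was the lowest of all. Slc25a33 was at 9.97 ± 1.02 and 8.46 ± 0.905 FPKM (interval -0.47 to 0.04). The ratio of Slc25a36 to Slc25a33 ran from 1.33 to 2.19 in WKY and from 1.08 to 2.77 in SHR, so it was above 1 in every library.

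Of the carriers related in sequence to the uncoupling proteins, Slc25a30 was at 3.70, 4.44, 2.89 and 3.42 FPKM in the WKY libraries, against 2.60, 2.97, 3.18 and 3.68 FPKM for SHR. Slc25a14 was at 2.49 ± 0.342 and 2.06 ± 0.457 FPKM, and both overlapped between the strains. Slc25a46, the member of the outer membrane, which takes part in mitochondrial shape and lipid transfer, was at 36.8, 40.6, 30.6 and 33.7 FPKM in the WKY libraries, against 31.1, 32.5, 30.6 and 37.9 FPKM for SHR. Its interval ran from -0.35 to 0.16.

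No role is given here for Slc25a35 and Slc25a34. Slc25a35 was at 11.50, 12.33, 10.85 and 12.16 FPKM in the WKY libraries, against 13.44, 13.87, 13.03 and 10.53 FPKM for SHR. Replicate 4 lay below all WKY libraries and the other SHR libraries above them. Slc25a34 was at 10.52, 8.90, 10.94 and 11.57 FPKM in the WKY libraries, against 8.09, 9.83, 7.55 and 6.23 FPKM for SHR, with all SHR libraries but replicate 2 below all WKY libraries. Its log2 fold change of -0.37 ± 0.14 did not pass (limma adjusted p = 0.106). The per-library values of Slc25a4, Slc25a44 and Slc25a34 are given because these 3 had an unadjusted p under 0.05, and those of Slc25a22 because its interval was the longest, choices made after their values were seen.

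Summed over the 33 members, the carriers came to 3529 ± 187 FPKM in WKY and 3385 ± 224 FPKM in SHR, with WKY replicate 3 (3259 FPKM) and SHR replicate 4 (3069 FPKM) lowest of their strains. Slc25a5 made up 46.9% to 48.3% of the sum in WKY and 45.0% to 48.8% in SHR, and Slc25a3 25.1% to 25.9% and 23.0% to 24.6%. The share of Slc25a10 was 6.81% to 8.23% in WKY, and 10.1%, 9.83%, 11.4% and 7.04% in SHR replicates 1 to 4. The 29 members other than Slc25a5, Slc25a3, Slc25a10 and Slc25a24 together held 16.0% to 17.5% of the sum in any library.

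The spread within a strain was small for most carriers, with a median coefficient of variation of 13.4% and a range from 4.75% (Slc25a5 in SHR) to 52.3% (Slc25a22 in SHR). SHR replicate 4 held the lowest SHR value for 16 of 33 members (48.5%, beside 24.3% of all tested genes), and SHR replicate 2 for 0 (beside 6.92%). WKY replicate 3 held the lowest WKY value for 15 members (45.5%, beside 39.7% of all tested genes). On the second principal component of all tested genes SHR replicate 4 lay highest at 24.17 and WKY replicate 3 lowest at -17.68.

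Markers of the labelled tissue were abundant. The 11 epithelial ones summed to 16127 to 19094 FPKM in WKY and 15994 to 18358 FPKM in SHR. No marker of B and plasma cells or of endothelium had a row, and the 2 listed of 8 markers of fibroblasts and smooth muscle summed to at most 3.38 FPKM. Markers of dividing cells (187 to 318 FPKM in WKY, 136 to 193 FPKM in SHR), goblet cells (3724 to 5087 and 2195 to 3066 FPKM) and T and natural killer cells (36.1 to 129.7 and 11.3 to 21.8 FPKM) had 5 of 8, 4 of 6 and 4 of 7 tested members lower in SHR past the threshold (62.5%, 66.7% and 57.1%, beside 7.48% of all tested genes). Of the 11 epithelial markers Cdx1 was higher (log2 fold change 0.46) and Krt18 lower (-0.50) past the threshold (18.2%, beside 10.9% of all tested genes). Of the 10 surface colonocyte markers only Muc13 was higher (0.50) past the threshold (10%, beside 3.4% of all tested genes). In that list 8 had positive and 2 negative values. The largest change was that of Aqp8 (-3.05), from 38.8 ± 38.8 to 3.02 ± 2.38 FPKM, which did not pass (limma adjusted p = 0.0681). The surface colonocyte markers summed to 23233 to 30247 FPKM in WKY and 26359 to 31147 FPKM in SHR, most of it from Car1, a carbonic anhydrase. The other 9 summed to 5775, 6898, 8561 and 7868 FPKM in WKY replicates 1 to 4 and 9281, 8537, 10391 and 7451 FPKM in SHR replicates 1 to 4, highest of its strain in WKY replicate 3 and lowest in SHR replicate 4. The part of all these markers in the values of the carriers was not tested.

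Genes that work beside the carriers were read from companion lists. Of 18 tested enzymes that make or use the carried metabolites 2 were lower in SHR and 0 higher, and of 17 tested mitochondrial transporters of other families 2 were higher and 0 lower. The enzymes lower in SHR were 11.1% of their list, beside 7.48% of all tested genes. The transporters higher in SHR were 11.8% of theirs, beside 3.40%. In either direction the shares stayed 11.1% and 11.8%, beside 10.9% of all tested genes. Of 16 genes that import carriers into the inner membrane, 13 regulators of mitochondrial biogenesis and 3 carrier homologues with other symbols, 0 passed in either direction. The median log2 fold changes of these 5 lists, in the same order, were -0.19, -0.05, -0.25, -0.01 and -0.08. In that order 13, 12, 15, 8 and 3 genes had negative values, beside 60.9% of all tested genes. Of the import genes, Tomm7, Timm8b and Timm10b had all SHR values below all WKY values, as 10.8% of all tested genes did.

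Gpd1, the cytosolic enzyme of the glycerol phosphate shuttle, which carries reducing power to mitochondria without an Slc25 carrier, fell in SHR, from 10.3 ± 2.08 to 3.54 ± 0.313 FPKM. The WKY values of 11.01, 7.60, 10.08 and 12.58 FPKM all lay above the SHR values of 3.76, 3.82, 3.14 and 3.46 FPKM (log2 fold change -1.30 ± 0.14, limma adjusted p = 0.000102).

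The other shuttle enzymes read did not pass. Gpd2, the mitochondrial enzyme of the glycerol phosphate shuttle, stood at 19.5 ± 2.05 and 18.8 ± 3.20 FPKM (interval -0.35 to 0.23). Of the malate-aspartate shuttle enzymes, Got1, Got2, Mdh1 and Mdh2 missed the threshold, with log2 fold changes of 0.06, -0.29, -0.24 and -0.13. Bcat2, the mitochondrial transaminase of branched-chain amino acids, which Slc25a44 carries, fell from 66.3 ± 8.54 to 49.1 ± 3.49 FPKM (log2 fold change -0.42 ± 0.12, limma adjusted p = 0.0404). Of the 8 fits that left out a library, 7 no longer called it, with values from -0.51 to -0.37 over all 8, nor did those after quantile normalization (limma adjusted p = 0.0549) and median centring (0.0699).

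Both transporters that rose handle mitochondrial calcium. Mcub, a subunit of the calcium uniporter that lowers its activity, was at 22.1, 22.9, 23.9 and 25.6 FPKM in the WKY libraries, against 39.4, 43.4, 38.4 and 33.7 FPKM for SHR. The strains were apart, and the log2 fold change was 0.69 ± 0.11 (limma adjusted p = 0.00196). Slc8b1, the sodium/calcium exchanger that lets calcium out of the matrix, rose from 6.22 ± 1.05 to 9.32 ± 1.13 FPKM (log2 fold change 0.52 ± 0.14, limma adjusted p = 0.0308). Of the 8 fits that left out a library, 5 did not call it, with values from 0.42 to 0.60 over all 8. The pore gene Mcu, at 105 ± 7.41 FPKM in WKY against 99.3 ± 10.2 in SHR, missed the threshold. So did the gatekeeper gene Micu2 and the subunit gene Smdt1 of the uniporter, with log2 fold changes of -0.07 and -0.33, and the cation exchanger gene Letm1, with 0.23. Of the calcium-stimulated carriers, Slc25a24, Slc25a25 and Slc25a23 had intervals from -0.32 to 0.28, -0.44 to 0.15 and -0.25 to 0.53.

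**Figure D4:**
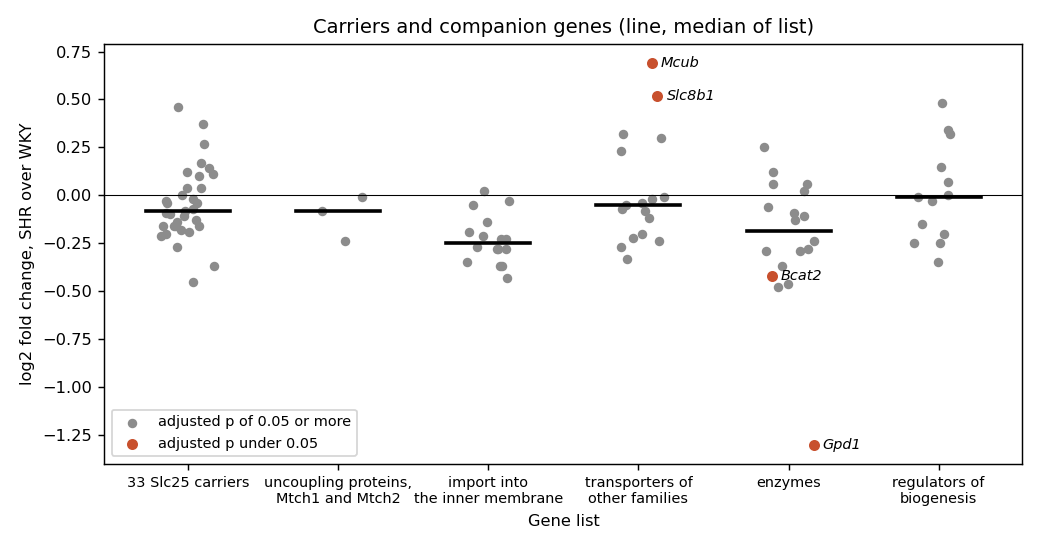
Log2 fold change, SHR over WKY, of the tested genes of each list (grey, adjusted p of 0.05 or more; coloured and named, adjusted p under 0.05; lines, list medians; sideways scatter has no meaning). The 33 carriers lie between -0.45 and 0.46 with none coloured, while Gpd1 at -1.30 stands lowest among the enzymes and Mcub at 0.69 stands highest.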

How the data were processed

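Poly(A)-selected RNA was sequenced as directional, paired-end libraries, per the labels' protocols. The submitters' processing notes list STAR, Trimmomatic and FastQC with no version. The counting, its use of strand, the genome build, the annotation and the test of the strains are not given in these sources. The deposited values were treated as FPKM, although the file does not name its unit. Weighted by a length computed from the authors' mean CPM, they summed evenly (highest over lowest library 1.035, against 1.209 unweighted). That length rests on the same values, so the check is not independent of them. Beside them the authors deposited, for SHR against WKY, p-values, q-values and a log2 fold change. The other deposited tables repeat these rows and were not used here. Read numbers are unknown, so no interval for counting error is given.

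Of 11762 genes, the 11069 that reached 1 FPKM in 4 or more libraries were tested as log2(FPKM + 1) with limma 3.58.1 in R 4.3.3 (two-sided, strain as the only term, with a variance trend and robust prior) and Benjamini-Hochberg adjustment over all tested genes. The fit was tested on simulated data. Means carry the SD of 4 libraries and fold changes limma's SE. Figures were drawn with matplotlib 3.10.9. The members and lists were chosen with earlier results of these data known. By the rule for named genes, values per library are given for members past the threshold and for the highest member of each role, and called genes of companion lists are named. Companion genes that did not pass and single marker genes were named after their values were seen. The alternatives were to leave out each library, to use the replicate number as a block, a pseudocount of 0.1 or 5, no filter, median centring or quantile normalization, plain limma settings, every row of a symbol, and the authors' q-values. Leaving out WKY replicate 3 and SHR replicate 4 together was added after seeing the data. Some carriers of the family and some genes of the companion lists are not reported here and enter none of their counts.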

Additional observations from a re-analysis of the deposited data

How the results depend on the processing

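The count of carriers past the threshold stayed at 0 under every alternative except those given here, in which 3 different members passed. Each carrier symbol had only 1 row, so using every row of a symbol could not change the count. Fits without 1 library called 0 to 1 members higher and 0 to 1 lower, namely Slc25a10 without SHR replicate 4 and Slc25a4 without SHR replicate 2. The fit without SHR replicate 4 called 10.5% of all tested genes and that without SHR replicate 2 called 8.08%. Without both WKY replicate 3 and SHR replicate 4 there were 2 higher (Slc25a10 at 0.46 and Slc25a44 at 0.62), while the share of all genes called was then 18.8%. With the replicate number as a block 1 was higher (Slc25a44, limma adjusted p = 0.0432), in a fit that called 11.9% of all tested genes. The labels do not say whether the numbers pair the libraries. The correlations of the deviations of same-numbered libraries were -0.105, -0.0393, 0.463 and -0.29, too few values to settle it. The median log2 fold change of the members was 0.02 after quantile normalization, where that of all genes was 0.00, and -0.11 to -0.04 without 1 library.

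Signs changed in 41 of 561 comparisons, for 13 members, none of which exceeded 0.16 in size as first given, and none of these passed. After quantile normalization the values were 0.23 (Slc25a5), 0.10 (Slc25a37), 0.07 (Slc25a24), 0.05 (Slc25a51), 0.04 (Slc25a3, Slc25a11) and 0.02 (Slc25a17). After median centring they were 0.04 (Slc25a51), 0.02 (Slc25a24) and 0.01 (Slc25a11, Slc25a17, Slc25a37), and as deposited by the authors 0.02 (Slc25a51) and 0.01 (Slc25a11). Without WKY replicate 3 and SHR replicate 4 they were 0.08 (Slc25a39), 0.02 (Slc25a51), 0.01 (Slc25a37), -0.07 (Slc25a15) and -0.11 (Slc25a40). Without 1 library, values ran from -0.12 to 0.05 for Slc25a11, -0.04 to 0.08 for Slc25a15, -0.09 to 0.03 for Slc25a17, -0.02 to 0.25 for Slc25a23 (0.30 without both libraries above), -0.11 to 0.04 for Slc25a24, -0.19 to 0.12 for Slc25a36, -0.13 to 0.03 for Slc25a37, -0.18 to 0.01 for Slc25a38, -0.20 to 0.10 for Slc25a39, -0.06 to 0.23 for Slc25a40 and -0.05 to 0.04 for Slc25a51.

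Without 1 library the companion lists gave 0 to 3 import genes lower, 1 to 2 transporters higher, 1 to 4 enzymes lower, and 0 to 2 regulators higher and 0 to 1 lower. Those fits called from 5.92% (without WKY replicate 4) to 14.3% (without WKY replicate 3) of all tested genes. The counts of 3 import genes and 4 enzymes came without WKY replicate 3. Without WKY replicate 3 and SHR replicate 4 the lists gave 7 import genes, 5 enzymes, 1 transporter and 2 regulators lower and 3 transporters and 1 regulator higher. That fit called 18.8% of all tested genes. Quantile normalization and median centring each left 1 enzyme lower, the first made 1 higher, and the authors' q-values made 1 regulator higher and 3 enzymes lower. The shares called were 11.6% and 11.3% of all tested genes and, by the authors' q-values, 15.3% of the listed genes. Bcat2 lost its call with the replicate number as a block (limma adjusted p = 0.0521). Gpd1 and Mcub passed under every alternative run, although with a pseudocount of 5 the log2 fold change of Gpd1 was -0.83. The causes were not tested. The number of reads is unknown, so counting error limits the lowest members by an amount that cannot be given.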

Other observations

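Genes beside the carriers were looked up in the gene order of the black rat assembly Rrattus_CSIRO_v1. The samples are labelled Rattus rattus, the black rat, but the deposited table carries identifiers of the brown rat, whose gene order may differ. All 33 members matched by symbol, on 14 chromosomes, and 0 pairs of members were direct neighbours. Of 37 direct neighbours that were tested, 1 passed (2.70%, beside 10.9% of all tested genes). This was Ikbip, next to Slc25a3, with a log2 fold change of -0.81 (limma adjusted p = 0.00242). The neighbour of Slc25a44, the semaphorin gene Sema4a, had a log2 fold change of 0.49 and did not pass (limma adjusted p = 0.062).

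Within strains, 66 groups of 4 libraries were searched by Dixon's criterion on FPKM, without logs. A value far from the other 3 was found in 0 groups. SHR replicate 4 in Slc25a10 did not meet the criterion. The search was not run on the log scale of the tests, where a low value stands further from the rest. WKY replicate 4 in Slc25a22 (1.22 FPKM, beside 3.17 to 3.71 FPKM in the other WKY libraries) was therefore not judged on that scale.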
